A study of Mus musculus with 9 samples.

Results

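Striatal neuron genes were followed through single libraries of mouse hippocampus. The members were 8 genes of the projection neurons of the striatum, Drd1, Adora2a, Ppp1r1b, Rgs9, Six3, Pde10a, Tac1 and Rarb, out of 14779 genes in the deposited table. They were found by Ensembl identifier through GENCODE M21, and they were selected on their CPM in 2 libraries, where they are high, replicate 3 of CIE+IgG and replicate 3 of CIE+IL17 Ab. Values of the members are therefore given as a description, and nothing is read from how many of them passed a test. All 8 genes were in the table and all 8 passed the filter on low counts. For 6 of the 8, the 2 named libraries held the 2 highest values. For Tac1 and Six3 they did not.

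Polyadenylated RNA of dissected hippocampus was sequenced in 9 libraries, 3 per group, and the design text gives 3 mice to a group. Mice of the Air+IgG group were kept in air and given IgG, an immunoglobulin that serves as the control for the antibody. Mice of the CIE+IgG group underwent CIE, chronic intermittent ethanol exposure, and were given IgG. Mice of the CIE+IL17 Ab group underwent CIE and were given an antibody against interleukin 17A, a cytokine of the immune system. Strain, age and treatment times are named in no label used here, and no group was exposed to air and given the antibody.

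Projection neurons of the striatum are inhibitory cells with spiny dendrites that receive dopamine from the midbrain. One class carries the D1 dopamine receptor and the peptide substance P, and the other carries the D2 dopamine receptor, an adenosine receptor encoded by Adora2a and enkephalin. In both classes the receptors act on cyclic AMP, and a set of phosphodiesterases, regulators of G proteins and phosphatase inhibitors shapes that signal. The striatum lies outside the hippocampus, but several of these genes are also expressed at lower levels by hippocampal cells.

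Library totals ranged from 7372658 to 11894628 counts, with 10374592 in CIE+IgG replicate 3 and 9074690 in CIE+IL17 Ab replicate 3. Wfs1 and Prox1, genes of hippocampal principal neurons, were detected in every library. Of the 13 genes of that list 1 was at 0 in CIE+IL17 Ab replicate 1, and the list summed to 812 to 1211 CPM in Air+IgG, 603 to 940 CPM in CIE+IgG and 235 to 607 CPM in CIE+IL17 Ab. CPM is a count relative to the library total, scaled between libraries with TMM. The 3 libraries with label numbers 37 to 39 held more counts than the 6 numbered 54 to 60. CIE+IgG replicate 3 carries number 39 and CIE+IL17 Ab replicate 3 carries number 54, so the named libraries came from both number ranges. What the numbers stand for is not given in the labels.

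Because the members were high together, the 250 bases before their annotated starts were read from RefSeq (GRCm38.p6), which held 8 windows for 6 of the 8 members. Windows are shown for Rgs9, the member closest to the shared pattern, for the dopamine receptor Drd1, and for Six3, the member farthest from it. Each is written in the direction of the gene, and capitals mark a GC box (GGGCGG, searched on both strands), a short motif found in 32.7% of the 32851 promoter windows of the table. These windows hold no exon base of their own gene in GENCODE M21, and exons of other genes were not checked. They lie at chr11:109298182-109298431 on the minus strand upstream of Rgs9, at chr13:54054781-54055030 on the minus strand within Drd1, and at chr17:85620584-85620833 on the plus strand within Six3.
Rgs9: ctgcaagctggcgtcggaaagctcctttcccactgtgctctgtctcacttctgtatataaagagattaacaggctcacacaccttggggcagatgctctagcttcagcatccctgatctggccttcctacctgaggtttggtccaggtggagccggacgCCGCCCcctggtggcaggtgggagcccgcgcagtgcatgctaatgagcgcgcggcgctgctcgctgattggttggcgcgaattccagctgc
Drd1: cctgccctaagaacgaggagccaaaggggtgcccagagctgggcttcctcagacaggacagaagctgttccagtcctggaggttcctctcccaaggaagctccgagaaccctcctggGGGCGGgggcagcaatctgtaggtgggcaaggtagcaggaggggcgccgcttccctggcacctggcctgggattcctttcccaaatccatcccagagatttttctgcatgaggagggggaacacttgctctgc
Six3: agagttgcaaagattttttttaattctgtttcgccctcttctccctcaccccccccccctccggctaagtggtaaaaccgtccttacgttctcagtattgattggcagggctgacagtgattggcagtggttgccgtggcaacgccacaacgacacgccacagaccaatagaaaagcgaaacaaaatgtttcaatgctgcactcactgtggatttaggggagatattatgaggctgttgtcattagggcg

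Drd1 had its GC box at 133 to 128 bases before the start. Rgs9 had one at 91 to 86 bases before it, on the other strand. The Six3 window held none of the 3 motifs reported here. In all, 4 of the 8 member windows held a GC box, those of Pde10a and Tac1 included, and a second Drd1 window held none. The other motifs reported, searched on both strands, were a cyclic AMP response element (TGACGTCA) and an E-box (CACGTG). The response element was present in 1.55% of all windows and in none of the 8 member windows. The E-box was present in 6.02% of all windows and in the Tac1 window. A longer pattern, for a retinoic acid response element, was also searched and matched the Rarb window. Its share of all windows is not given here, so nothing is read from that match. A match describes these letters and is not evidence of binding.

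Drd1, the D1 dopamine receptor (chromosome 13, 54051183 to 54055705, minus strand, GRCm38), had 10.1, 7.93 and 11.7 CPM in Air+IgG replicates 1 to 3, 6.12, 8.19 and 73.0 CPM in CIE+IgG, and 7.64, 8.61 and 44.5 CPM in CIE+IL17 Ab. Only the 2 named libraries lay above the Air+IgG range, and the 4 other libraries of the ethanol-exposed groups lay below the Air+IgG median. The 73.0 CPM rested on 783 counts and the 44.5 CPM on 422 counts, against 55 to 123 counts in the other 7 libraries. In bulk tissue, more cells of a type and more RNA per cell cannot be told apart, here or for any gene below.

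Adora2a, the adenosine receptor of the other class of projection neuron (chromosome 10, 75316877 to 75334784, plus strand), had 1.19, 1.08 and 2.18 CPM in Air+IgG, 1.93, 1.17 and 34.4 CPM in CIE+IgG, and 2.5, 2.04 and 21.4 CPM in CIE+IL17 Ab. It stood out the most of the 8 members. CIE+IgG replicate 3 held 15.8 times and CIE+IL17 Ab replicate 3 held 9.83 times the CPM of the highest Air+IgG library, where the same ratios for Drd1 were 6.27 and 3.82. The counts behind this were 369 and 203 in the named libraries and 8 to 26 in the other 7.

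Among the signalling members, Ppp1r1b, which encodes DARPP-32, an inhibitor of protein phosphatase 1 controlled by dopamine (chromosome 11, 98348404 to 98357796, plus strand), had 48.0, 25.2 and 31.3 CPM in Air+IgG, 45.6, 39.8 and 180 CPM in CIE+IgG, and 21.4, 57.7 and 126 CPM in CIE+IL17 Ab. Its other libraries were spread more widely than those of Drd1, from 21.4 CPM in CIE+IL17 Ab replicate 1 to 57.7 CPM in replicate 2, and the named libraries lay above all of them.

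Rgs9, a regulator of G protein signalling (chromosome 11, 109225355 to 109298129, minus strand), had 16.7, 16.3 and 20.5 CPM in Air+IgG, 16.0, 15.9 and 129 CPM in CIE+IgG, and 25.2, 20.6 and 83.2 CPM in CIE+IL17 Ab. All 3 CIE+IL17 Ab libraries lay above the Air+IgG libraries, replicate 2 by a small margin. Pde10a, a phosphodiesterase that breaks down cyclic AMP and cyclic GMP (chromosome 17, 8525372 to 8986648, plus strand), had 142, 172 and 150 CPM in Air+IgG, 147, 160 and 550 CPM in CIE+IgG, and 112, 132 and 355 CPM in CIE+IL17 Ab. Replicates 1 and 2 of CIE+IL17 Ab were the lowest of the 9 libraries for Pde10a, and replicate 3 was the second highest.

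Tac1, the precursor of substance P (chromosome 6, 7554879 to 7565834, plus strand), had 4.88, 4.03 and 5.49 CPM in Air+IgG, 3.33, 4.80 and 23.2 CPM in CIE+IgG, and 31.1, 7.91 and 14.5 CPM in CIE+IL17 Ab. Its highest library was CIE+IL17 Ab replicate 1, with 224 counts, which was not among the high libraries for Drd1, Ppp1r1b or Pde10a. CIE+IgG replicate 3 was second and CIE+IL17 Ab replicate 3 came next.

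Rarb, retinoic acid receptor beta (chromosome 14, 16430839 to 16819156, minus strand), had 10.9, 11.3 and 9.66 CPM in Air+IgG, 9.56, 9.25 and 34.9 CPM in CIE+IgG, and 16.1, 12.8 and 21.6 CPM in CIE+IL17 Ab. Its named libraries were the highest, and the other CIE+IL17 Ab libraries also lay above the Air+IgG libraries.

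Six3, a homeodomain factor of forebrain and striatal development (chromosome 17, 85613608 to 85629302, plus strand), had 0.650, 0.403 and 1.14 CPM in Air+IgG, 2.69, 0.585 and 7.36 CPM in CIE+IgG, and 5.70, 6.18 and 6.01 CPM in CIE+IL17 Ab. All 3 CIE+IL17 Ab libraries were near one another, above every library except CIE+IgG replicate 3. These levels rest on few reads, with 3 to 12 counts in Air+IgG, 5 to 79 in CIE+IgG and 41 to 79 in CIE+IL17 Ab.

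**Figure D1:**
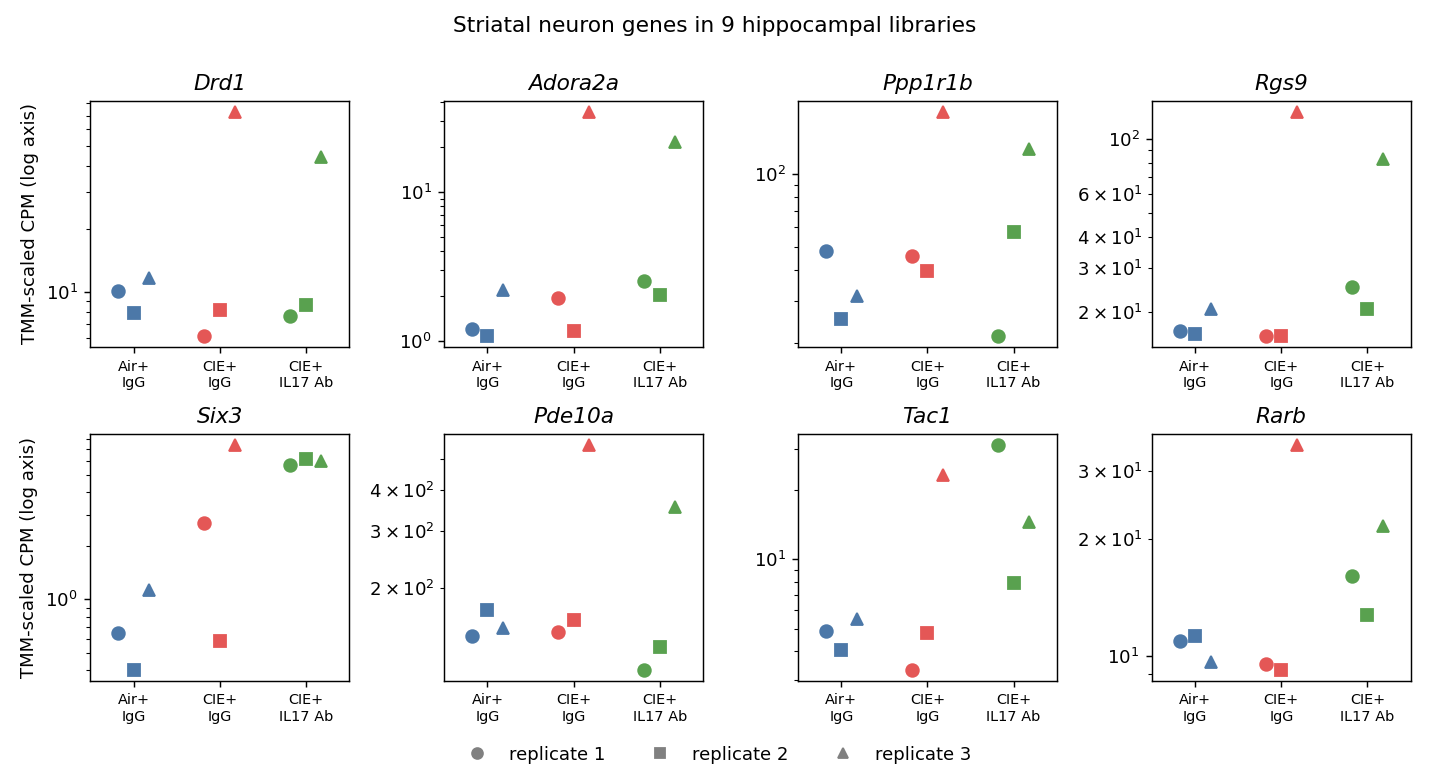
TMM-scaled CPM on a log axis for each member, with 1 point per library, by group and with the replicate number as the symbol. In 6 panels the highest and second-highest points are replicate 3 of CIE+IgG and replicate 3 of CIE+IL17 Ab. In the Tac1 panel CIE+IL17 Ab replicate 1 is highest at 31.1 CPM, and in the Six3 panel all 3 CIE+IL17 Ab libraries lie between 5.70 and 6.18 CPM.

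Summed over the 8 members, the libraries apart from the named ones were close to one another. The sum was 235, 238 and 232 CPM in Air+IgG, 232, 239 and 1031 CPM in CIE+IgG, and 222, 248 and 672 CPM in CIE+IL17 Ab. CIE+IgG replicate 3 thus held 4.40 times and CIE+IL17 Ab replicate 3 held 2.87 times the Air+IgG median. As the median over the members of log2 CPM above the median of the 9 libraries, the named libraries stood at 2.01 and 1.41.

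CIE+IgG replicate 3 was above CIE+IL17 Ab replicate 3 for all 8 members. The ratio of CPM between these libraries ran from 1.23 for Six3 to 1.64 for Drd1, with a median of 1.58. With the Air+IgG median subtracted from both libraries, the ratio ran from 1.25 for Six3 to 2.24 for Rarb. The members were selected on these 2 libraries, so nothing is read from how alike their ratios are. For Pde10a, the member with the most counts, the ratio of CPM was 1.55 with a 95% counting interval of 1.48 to 1.62. For Ppp1r1b it was 1.43 with an interval of 1.33 to 1.54, which overlaps the interval of Pde10a. For Six3 the interval ran from 0.860 to 1.75. These intervals cover counting error only, and with 1 library on each side they say nothing of variation between mice.

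Levels of different genes were compared per length, as CPM per kilobase of exons. In CIE+IgG replicate 3 the order was Ppp1r1b at 61.4, Pde10a at 42.8, Rgs9 at 20.2, Drd1 at 20.1, Adora2a at 11.2, Tac1 at 6.83, Rarb at 6.62 and Six3 at 1.35 CPM per kilobase. CIE+IL17 Ab replicate 3 gave 43.0, 27.6, 13.0, 12.3, 6.99, 4.25, 4.11 and 1.10 CPM per kilobase for the same genes, in the same order. Within 1 library there is no replicate spread by which to separate Rgs9 from Drd1 or Tac1 from Rarb. In the Air+IgG libraries Ppp1r1b and Pde10a were also the most abundant per length, and their order differed between the replicates.

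Shares of the per-length sum show how the mixture of members differed. Adora2a made up 6.59% and 6.23% of that sum in replicate 3 of CIE+IgG and replicate 3 of CIE+IL17 Ab, and 1.06% to 2.15% in the Air+IgG libraries. Pde10a made up 25.1% and 24.6% in the named libraries and 30.0% to 43.9% in Air+IgG, but it was also 24.2% and 24.4% in CIE+IL17 Ab replicates 1 and 2. Tac1 made up 25.3% in CIE+IL17 Ab replicate 1, against 2.79% to 5.52% in the other 8 libraries.

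Other genes of striatal projection neurons, from 4 lists of 43 genes, showed where the pattern reached beyond the members. Of the 43 genes, 41 were measured. Both named libraries held the 2 highest values for 24 of the 41, where 2.86% of all genes had this order. CIE+IgG replicate 3 was highest for 30 of the 41, where it was highest for 7.77% of all genes. The 11 exceptions were highest in CIE+IL17 Ab replicate 1 (5 genes), Air+IgG replicate 2 (4 genes), CIE+IL17 Ab replicate 3 (1 gene, Pde7b) and CIE+IgG replicate 2 (1 gene, Ikzf1). Pde7b and Ikzf1 were chosen for naming after their values were seen. The lists were drawn up with results of these libraries known, so these counts are descriptions.

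Receptors and peptides followed the members closely, with both named libraries on top for 5 of 7 genes. Penk, the precursor of enkephalin, had 11.3, 20.2 and 18.6 CPM in Air+IgG, 14, 11.8 and 130 CPM in CIE+IgG, and 35.3, 12.3 and 78.8 CPM in CIE+IL17 Ab. Penk was highest in the named libraries, and the next library was CIE+IL17 Ab replicate 1. Gpr6, an orphan receptor, had 11.7 and 9.07 CPM in the named libraries and at most 1.99 CPM in the other 7.

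Among signalling genes both named libraries were on top for 6 of 11. Adcy5, the adenylyl cyclase of striatal neurons, had 149, 141 and 144 CPM in Air+IgG, 164, 133 and 424 CPM in CIE+IgG, and 172, 204 and 322 CPM in CIE+IL17 Ab. Rasd2, a small GTPase, had 110 and 74.8 CPM in the named libraries and at most 52.1 CPM elsewhere. Rasgrp2, an exchange factor for Rap proteins, was instead highest in CIE+IL17 Ab replicate 1, at 75.6 CPM, with 50.6 and 38.2 CPM in the named libraries.

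Among transcription factors both named libraries were on top for 6 of 12. Isl1, Rxrg and Foxp2 are named for the largest gaps between highest library and median, and not all factors were like them. Bcl11b, chosen for naming after its values were seen, had 144 and 118 CPM in the named libraries and 283 CPM in Air+IgG replicate 2. Isl1, a factor of the D1 class, had 11.0 and 8.23 CPM in the named libraries and 5.32 CPM in CIE+IL17 Ab replicate 2. It had 4.30 CPM in another CIE+IgG library and 0 counts in Air+IgG replicate 2. Rxrg, a retinoid X receptor and partner of Rarb, had 20.1 and 12.1 CPM in the named libraries and at most 6.81 CPM elsewhere. Foxp2, described again below, had 4.98, 4.57 and 9.47 CPM in Air+IgG, 4.83, 4.57 and 37.9 CPM in CIE+IgG, and 110, 95.5 and 57.2 CPM in CIE+IL17 Ab. For Foxp2 the named library of the antibody group was thus the lowest of its group.

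Among channels, scaffolds and other genes both named libraries were on top for 7 of 11. Cd4, a coreceptor of T cells, had 148 and 62 counts in the named libraries (13.8 and 6.54 CPM) and 1 to 17 counts in the other 7. Sh3rf2, a scaffold protein, had 235 and 105 counts there and 1 to 40 elsewhere. Syndig1l, a transmembrane protein of striatal neurons, had 37.7 and 33.0 CPM in the named libraries and was also high in the other CIE+IL17 Ab libraries, at 26.7 and 20.4 CPM, above the 3.51 to 6.05 CPM of the remaining 5.

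**Figure D2:**
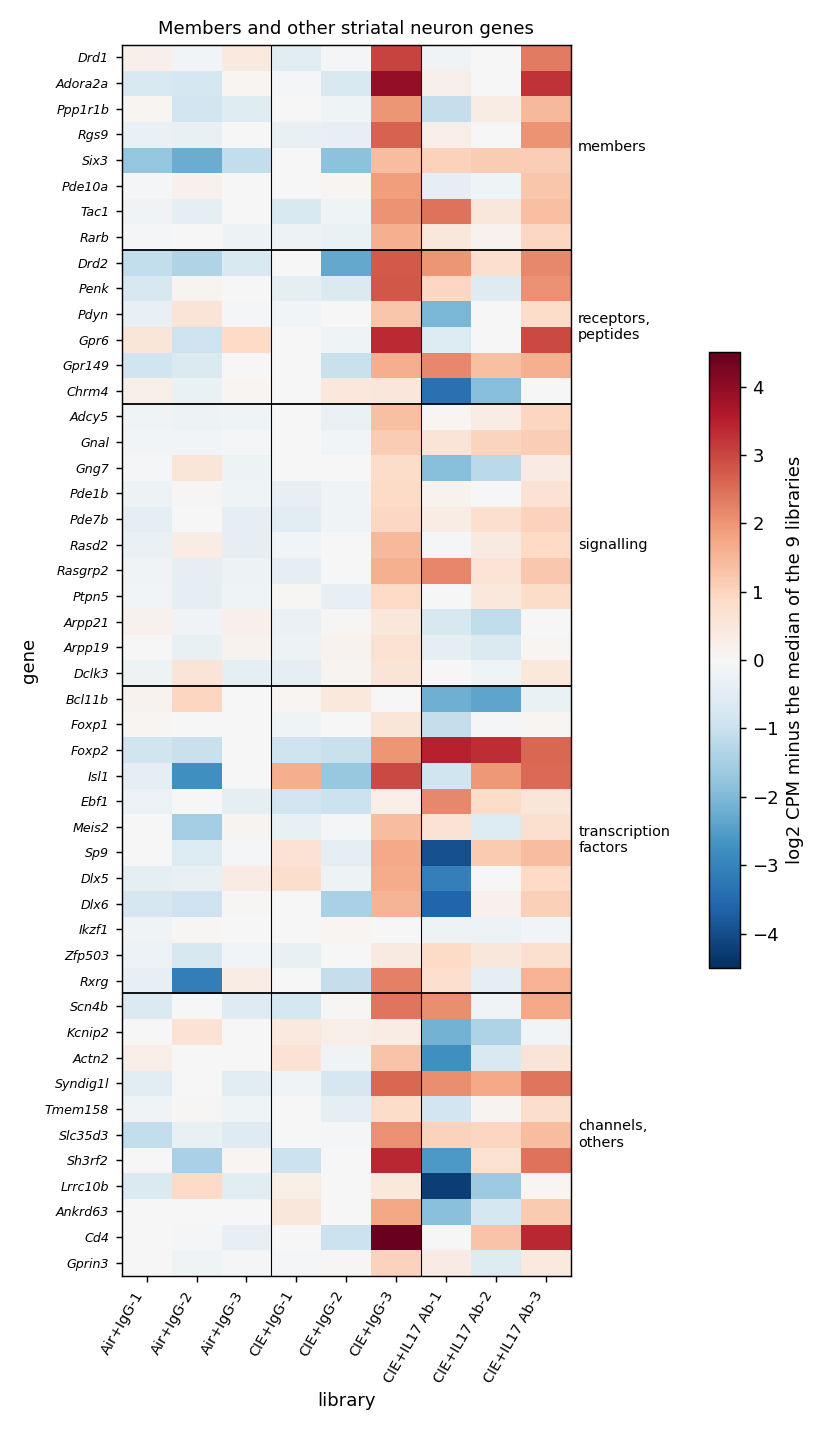
Colour gives log2 CPM minus the median of the 9 libraries for each member and 40 of the 41 other striatal genes (rows, by list), with libraries as columns. The columns of replicate 3 of CIE+IgG and replicate 3 of CIE+IL17 Ab are red for most rows, and Foxp2, Gpr149 and Syndig1l are red in all 3 CIE+IL17 Ab columns.

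The ratio between the named libraries ranged more widely over these genes than over the members. The members are fewer and were selected on these libraries, so the 2 ranges cannot be weighed against each other. Over the 41 genes CIE+IgG replicate 3 was above CIE+IL17 Ab replicate 3 for 37, with a median ratio of 1.36 and a range of 0.664 for Foxp2 to 2.11 for Cd4. For 27 of the 41 the counting interval lay above 1. The shares over all genes are not given for these counts, so nothing is read from them.

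**Figure D3:**
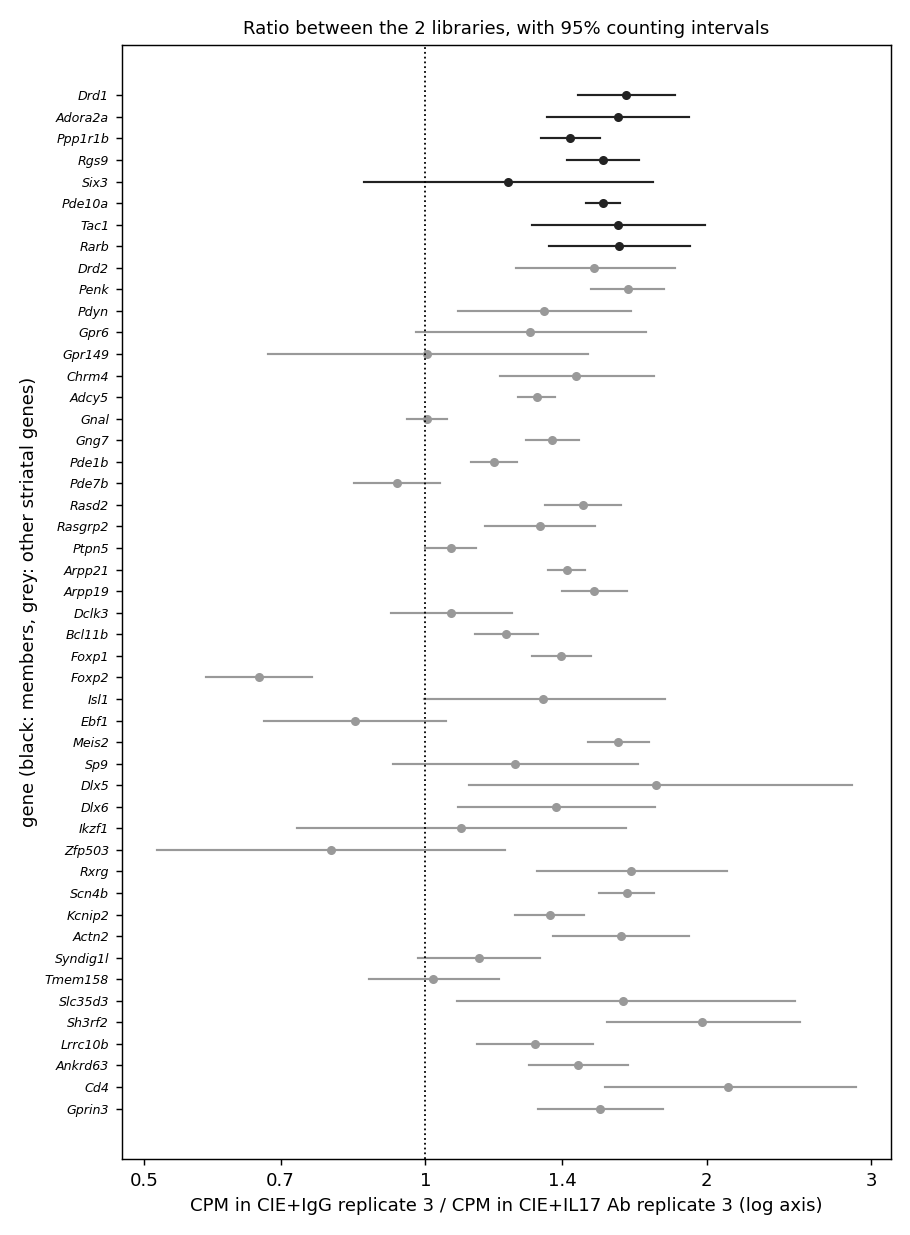
Points give the CPM of CIE+IgG replicate 3 divided by that of CIE+IL17 Ab replicate 3 on a log axis, and lines give 95% counting intervals, for members (black) and 40 of the 41 other striatal genes (grey). All 8 members lie between 1.23 and 1.64, and Foxp2 is the lowest point at 0.664.

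By the root-mean-square difference of centred log2 CPM over the 9 libraries, the genes most like the mean of the members were ranked among genes with at least 50 counts in some library. Rgs9 was the member closest to this mean, at 0.185, and Six3 the farthest, at 0.895. The 10 nearest genes that were not members were Cpne5 at 0.386, Kcna5 at 0.415, Adcy5 at 0.429, Spint1 at 0.448, Dach1 at 0.465, Penk at 0.474, Slc35d3 at 0.479, Papln at 0.50, Lrrc9 at 0.520 and Sox1 at 0.535. Adcy5, Penk and Slc35d3 were on the striatal lists. Cpne5, a calcium-binding copine, had 69.5 and 49.2 CPM in the named libraries and 16.8 to 35.4 CPM in the other 7. The members themselves contribute to the mean, so their distances cannot be set beside those of other genes.

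The first comparison set ethanol-exposed mice against mice kept in air, both given IgG. All 8 members had a higher mean in CIE+IgG, and for 0 of the 8 did the groups separate, where 4.64% of all genes lay higher in CIE+IgG without overlap. Their median log2 fold change was 1.45, and over all 14696 genes tested it was -0.0073. Adora2a had the largest value, 3.05 (SE, standard error, 1.46), and Rarb the smallest, 0.76 (SE 0.49). Without CIE+IgG replicate 3 the median of the members was -0.087, and within the libraries numbered 54 to 60 it was -0.037. Without that library 5 members had a negative value, among them Drd1 at -0.48, and Six3 stayed farthest above 0 at 1.12.

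Called genes were those with an adjusted p under 0.05 in edgeR's quasi-likelihood test. In this comparison 0.00% of all genes were called (edgeR), and 0 of the 8 members. Of the 41 other striatal genes 39 had a value above 0, with a median of 0.73, and 0 were called in edgeR, DESeq2 and limma-voom, with 2 at an unadjusted p under 0.05 in edgeR. Without both named libraries their median was 0.048, with 23 above 0 and 17 below, and 1 of the 41 no longer passed the filter.

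The second comparison, between the ethanol-exposed groups with and without the antibody, set a group with 1 named library against another with 1. The median log2 fold change of the members was -0.35, and 0.015 over all genes. Drd1 had -0.53 with an SE of 0.97, Adora2a -0.55 with 1.23 and Pde10a -0.52 with 0.58, while Six3 had 0.72 with 0.64 and Tac1 0.73 with 0.72. The groups overlapped for all 8 members, where 12.7% of all genes lay higher and 13.2% lower without overlap. Single libraries set the direction of the median. It was 1.46 without replicate 3 of CIE+IgG, -1.19 without replicate 3 of CIE+IL17 Ab and 0.50 without both. It was 1.79 within the libraries numbered 54 to 60 and 0.17 with the label number as a term.

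In this comparison 3.18% of all genes were called, and 0 of the 8 members. Of the 41 other striatal genes edgeR called 0, with 6 at an unadjusted p under 0.05. DESeq2 called 3, where it called 10.3% of all genes, and limma-voom called 1, where it called 4.01%. In edgeR, leaving out replicate 3 of CIE+IgG gave 6, where 4.85% of all genes were called. Leaving out replicate 3 of CIE+IL17 Ab also gave 6, where 8.90% of all genes were called. Without both it was 12, where 10.8% of all genes were called, with 6 higher in CIE+IL17 Ab and 6 lower.

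The third comparison set the antibody group against the air controls, and it shares its groups with the other comparisons. All 8 members had a higher mean in CIE+IL17 Ab, with a median log2 fold change of 1.15, against 0.012 over all genes. For Rgs9, Six3, Tac1 and Rarb every CIE+IL17 Ab library lay above every Air+IgG library, which was true of 17.3% of all genes. Six3 had 2.96 with an SE of 0.76, Adora2a 2.5 with 1.47 and Tac1 1.86 with 0.77. Pde10a had the smallest value, 0.37 with 0.58. Without CIE+IL17 Ab replicate 3 the median was 0.39, and Drd1 and Pde10a had -0.29 and -0.35, while Six3 and Tac1 had 2.95 and 1.98.

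In this comparison 13.5% of all genes were called, and 1 of the 8 members, Six3. The call of Six3 was lost without any 1 of 7 libraries, in limma-voom and with the replicate number as a block. Of the 41 other striatal genes 3 rose in CIE+IL17 Ab against Air+IgG and 0 fell, where 6.83% of all genes rose and 6.71% fell, with a median log2 fold change of 0.69 over the list. Foxp2, a forkhead transcription factor, rose from 6.34 ± 2.72 CPM to 87.7 ± 27.4 CPM (SD, n = 3). Its log2 fold change was 3.76 (SE 0.82, adjusted p = 0.0248 in edgeR). Zfp503, a zinc finger protein of striatal development, rose from 2.33 ± 0.519 to 5.13 ± 0.728 CPM (adjusted p = 0.0339, edgeR). Gpr149, an orphan receptor, rose from 1.10 ± 0.448 to 5.92 ± 1.79 CPM (adjusted p = 0.0474, edgeR). In all 3 genes every CIE+IL17 Ab library lay above every Air+IgG library.

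These calls depended on single libraries, as did the share called over all genes. The count of 3 was 0 without Air+IgG replicates 1 to 3 in turn, where 3.24%, 2.28% and 0.00% of all genes were called. It was also 0 without CIE+IL17 Ab replicate 2 (1.48% of all genes) and 1 without CIE+IL17 Ab replicate 1 (15.2%). It was 10 without CIE+IgG replicate 3 (13.9%), 7 without CIE+IL17 Ab replicate 3 (15.6%) and 15 without both (16.4%). These counts take both directions together. Of the 15, 9 were higher in CIE+IL17 Ab and 6 lower. The log2 fold change of Foxp2 lay between 3.58 and 4.18 without each Air+IgG replicate.

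**Figure D4:**
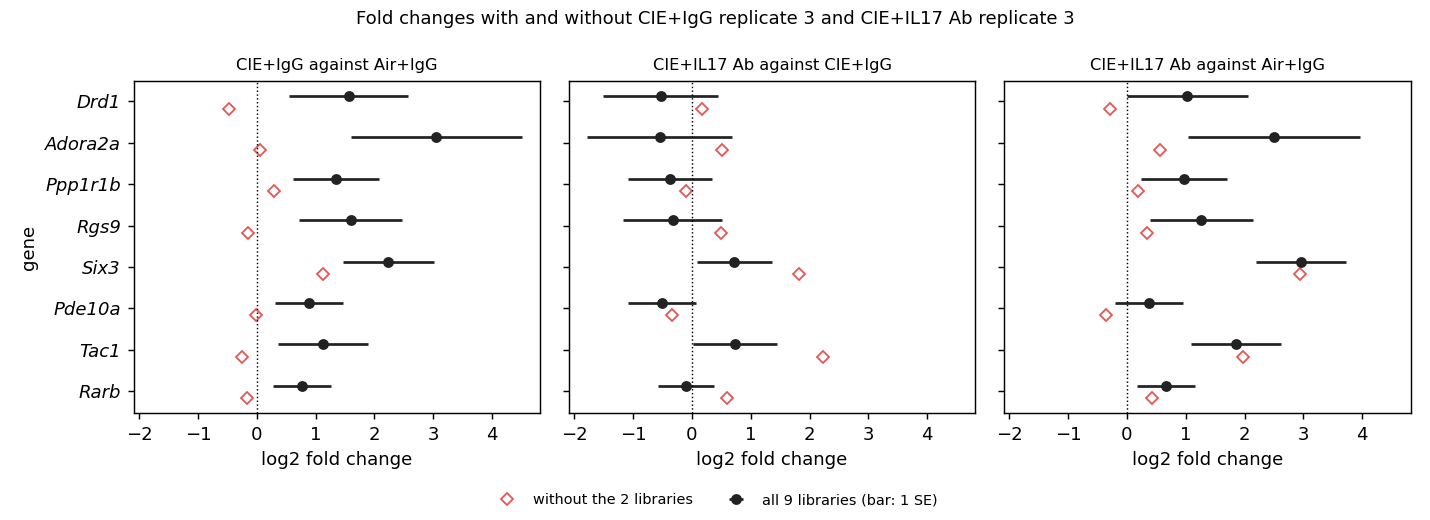
Log2 fold changes of the members in each comparison with all 9 libraries (black, bars of 1 standard error) and without replicate 3 of CIE+IgG and replicate 3 of CIE+IL17 Ab (open diamonds). In the first comparison most diamonds lie near 0, and in the third comparison Six3 stays at 2.95 and Tac1 at 1.98.

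Genes of the retinoid pathway were described beside Rarb. The 13 genes of the list that passed the filter summed to 201 to 254 CPM in Air+IgG, 225 to 232 CPM in CIE+IgG and 229 to 304 CPM in CIE+IL17 Ab. Of these, edgeR called 0 in each comparison, with 2, 2 and 1 at an unadjusted p under 0.05 in the order given above. DESeq2 called 0, 1 and 1, and limma-voom 0 in each. Without both named libraries edgeR called 0, 1 and 1.

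Markers of neighbouring regions and other cell types were read in the same libraries. The 2 genes of cholinergic neurons in the table, Chat and Slc5a7, summed to 17.3 CPM in CIE+IgG replicate 3 and to 11.7, 30.3 and 28.6 CPM in CIE+IL17 Ab replicates 1 to 3, against 0.819 to 3.60 CPM in the other 5 libraries. Both named libraries were therefore high for them, but so were the other CIE+IL17 Ab libraries. The 5 lateral septum genes summed to 373 CPM in CIE+IgG replicate 3 and 475 CPM in CIE+IL17 Ab replicate 3. They also summed to 491 CPM in CIE+IL17 Ab replicate 2, against 105 to 251 CPM in the other 6. The genes of this list did not move together. In CIE+IL17 Ab against Air+IgG, 3 of the 5 had a fold change above 0 and 2 below. Mean CPM went from 39.4 in Air+IgG to 251 in CIE+IL17 Ab for Zic1, and from 85.4 to 45.4 for Trpc4.

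Thalamus and habenula genes, among them Tcf7l2 and Chrna3, were highest in the 3 CIE+IL17 Ab libraries. Their sum was 716 to 1219 CPM in CIE+IL17 Ab, 97 to 211 CPM in CIE+IgG and 81 to 97 CPM in Air+IgG. The highest CIE+IgG library was replicate 3. Six3 and Foxp2 were likewise high in all 3 CIE+IL17 Ab libraries, and Drd1, Adora2a, Ppp1r1b and Pde10a were not in CIE+IL17 Ab replicates 1 and 2. Whether tissue from these regions had a part in the values of the members was not tested.

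Choroid plexus genes, led by Ttr, summed to 5737 and 5870 CPM in the named libraries. They summed to 7288 CPM in CIE+IL17 Ab replicate 2, 90.2 CPM in its replicate 1 and 523 to 5071 CPM in the remaining libraries. Oligodendrocyte genes summed to 7121 and 6021 CPM in the named libraries. They summed to 7326 and 7294 CPM in CIE+IL17 Ab replicates 1 and 2 and 3929 to 5379 CPM in the remaining libraries. Ependyma genes summed to 91.8 and 102 CPM in the named libraries. They summed to 116 CPM in CIE+IL17 Ab replicate 2, 31.3 CPM in its replicate 1 and 20.3 to 66.6 CPM in the remaining libraries. Neocortical genes summed to 175 and 242 CPM in the named libraries, within or below the 206 to 393 CPM of the other 7. Hippocampal neuron genes summed to 603 and 607 CPM in the named libraries, lower than the 812 to 1211 CPM of Air+IgG and higher than the 235 and 432 CPM of the other CIE+IL17 Ab libraries. The part of these cells in the results was not tested.

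**Figure D5:**
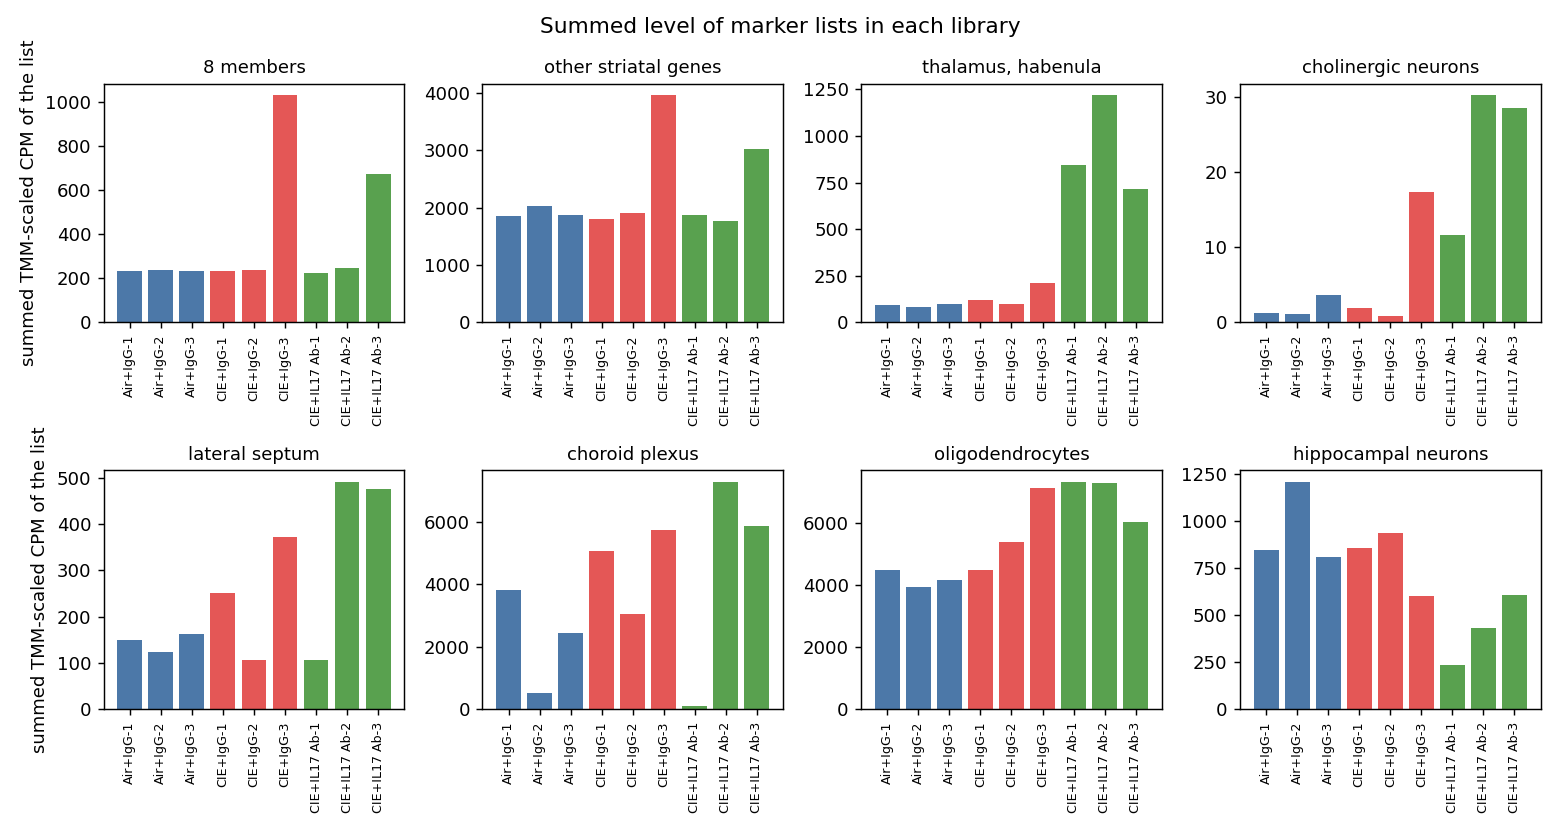
Bars give the summed TMM-scaled CPM of each marker list in each library, from 0, coloured by group. The sum of the 8 members is 1031 CPM in CIE+IgG replicate 3 and 672 CPM in CIE+IL17 Ab replicate 3 and 222 to 248 CPM elsewhere, and the thalamus and habenula list is at least 716 CPM in all 3 CIE+IL17 Ab libraries.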

How the data were processed

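Stranded libraries of polyadenylated RNA were made, per the labels' protocols. The authors deposited 1 table of expected counts per gene (estimated counts from RSEM) for 9 libraries, with no scaling between them. Per the submitters' processing notes, STAR 2.5.1a, RSEM 1.3.0 and GRCm38 were used. Which annotation release they used is not given in the sources used here. Reads of similar genes are split by estimation in such counts. Symbols and positions came from GENCODE M21 on GRCm38, which matched 14628 of 14779 identifiers.

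Counts were rounded. Genes were kept with filterByExpr at a minimum count of 10, leaving 14696. edgeR 4.0.16 in R 4.3.3 was fitted to all 9 libraries with TMM scaling, a mean per group, robust quasi-likelihood and 6 residual degrees of freedom, with Benjamini-Hochberg adjustment over all genes. The standard error is the log2 fold change divided by the square root of F. Log2 CPM used a prior count of 2. The fits were also run on simulated counts. No simulated library was set apart from its group, so that run cannot show how the fits behave with such libraries. Ratios of single libraries have 95% exact binomial intervals of counts.

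The members and lists were chosen with earlier results of these data known. Named genes were all members, called genes of the striatal lists (at most 4 per comparison), the 3 genes of each list with the largest gap between the highest library and the median, the 10 genes most like the members, and at most 2 genes of each marker list. Of these, 1 striatal list gene is not reported here by name and is left out of the figures. No libraries were identical: chi-square per degree of freedom was at least 3.93 for any pair and 4.06 within groups. Replicate numbers in the titles were not taken to pair the mice. Alternatives tried were limma-voom (limma 3.58.1), DESeq2 1.42.0 and its size factors in edgeR, other filters, other sample sets, blocks, and each library left out. Leaving out both named libraries was chosen after seeing the data.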

Additional observations from a re-analysis of the deposited data

How the results depend on the processing

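With 3 libraries per group and 2 libraries apart from the rest, single libraries moved the counts of called genes. Of 450 fold changes of members under an alternative, 406 moved by under 1 SD of the members' score (1.01 on the log2 scale). The named libraries widen this SD, so a move below it can still be large. Without CIE+IgG replicate 3 the members' median in the first comparison went from 1.45 to -0.087. Counts of all called genes in the 3 comparisons, in the order reported, were 0, 468 and 1990. DESeq2 gave 6 and 1481 in the first and second. Fitting only the groups compared gave 1 in the second and 1192 in the third, the label number block gave 776 in the second, and the libraries numbered 54 to 60 gave 1 and 2 in the second and the third. Leaving out both named libraries gave 1590 and 2410 in the second and the third. Other striatal genes called, 0 in the second comparison, were 3 with DESeq2, 1 with limma-voom, 1 with the label number block and 12 without both named libraries. The shares of all genes called in these fits were 10.3%, 4.01%, 5.28% and 10.8%. In the third, 3 were called. The count was 11 with DESeq2 (9 higher, 2 lower), 9 with only the groups compared and 5 with the label number block. It was 0 in libraries 54 to 60 and 15 without both (9 higher, 6 lower). Over all genes these fits called 19.0%, 8.24%, 15.0%, 0.0137% and 16.4%. The members' median in the first comparison was -0.037 in libraries 54 to 60 and -0.082 without both named libraries, and in the second it was 1.79 in libraries 54 to 60. Scaling by library totals gave 2.05 and 1.47 for the named libraries.

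Leaving out each library in turn, all genes called ranged from 0 to 0, 0 to 1313 and 0 to 2305, other striatal genes called from 0 to 0, 0 to 6 and 0 to 10, and the members' median from -0.087 to 1.84, -1.19 to 1.46 and 0.39 to 1.51. The median of the named libraries ranged from 1.90 to 2.10 and from 1.32 to 1.61. With the replicate number as a block, 14 genes were called in the second comparison and 571 in the third, with 1 other striatal gene in the third, and the members' medians were 0.90, -0.067 and 0.76. Deviations of same-numbered libraries correlated between -0.27 and 0.25 over 9 pairs, and 3 of 9 libraries correlated best with their own number. With 3 libraries per group these correlations cannot exclude a pairing, and the labels used here state none. The causes of these shifts were not tested.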
